A study of Mus musculus with 4 samples.

Results

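The T cell receptor signalling components described here are 41 genes, of 27179 in the deposited count table, that encode the CD3 chains of the receptor, its coreceptor, and the kinases, adaptors, phosphatases and inhibitors that work next to it. They were taken by symbol from a list of 42 names. The remaining name, Gads, is an older name of Grap2 and has no row of its own. All 41 passed the filter on low counts, with at least 155 counts in every library, and all lie on autosomes.

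The 4 RNA sequencing libraries came from CD4+Foxp3+ regulatory T cells (Treg cells) of C57BL/6 mice, taken from spleen and peripheral lymph nodes without any treatment. There were 2 libraries of wild-type cells (WT) and 2 labelled P65KO, from Treg cells deficient in RelA (p65), which is an NF-kB family transcription factor. The kind of Rela allele, any Cre driver, the age of the mice and the number of mice per library are not stated in the sources used here. The labels ask how the Treg transcriptome depends on RelA.

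As background, a T cell reads peptide bound to MHC through its receptor, whose CD3 and zeta chains carry the tyrosine motifs that the kinase Lck phosphorylates. Zap70 docks on these motifs and phosphorylates the adaptors Lat and SLP-76, which assemble the enzymes that start calcium, Ras and NF-kB signals. Phosphatases, ubiquitin ligases and diacylglycerol kinases limit the response, and Treg cells need receptor signals to keep their activated, suppressive state.

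Library totals ran from 4513863 to 4624230 counts. Rela itself was counted 875, 806, 820 and 909 times in WT 1, WT 2, P65KO 1 and P65KO 2. A count over the whole gene also covers exons that a deletion may spare, and so is no check of the label. The groups also differed in Xist (494 and 608 counts in WT, 0 and 2 in P65KO) and in the Y-linked gene Ddx3y (0 and 0 against 302 and 404). For every gene below, autosomal members included, a difference by genotype label therefore cannot be told apart from a difference by sex. CPM below stands for edgeR's counts divided by library size, with the sizes scaled by TMM factors, and 4 values in a row follow the order WT 1, WT 2, P65KO 1, P65KO 2. Of 5 Treg markers, Cd4 and Foxp3 (377, 371, 386 and 528 CPM) did not pass, Il2ra rose 1.34-fold, and Ctla4 and Ikzf2 fell 1.89-fold and 3.14-fold. Their summed level was 2789, 2713, 2297 and 2659 CPM, while the CD8 genes Cd8a and Cd8b1 summed to 25.4, 25.8, 32.9 and 32.1 CPM.

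Of the 41 genes, 9 were higher and 5 were lower in P65KO libraries, and 27 did not pass, by the quasi-likelihood test of edgeR at a threshold of 0.05. An edgeR adjusted p below is from that test, with Benjamini-Hochberg adjustment over all genes tested, and a log2 value with ± SE is the log2 fold change of P65KO over WT with its standard error. The genes that rose were Txk, Pag1, Grap2, Cd247, Themis, Ptpn6, Rasgrp1, Dgka and Csk. Those that fell were Ubash3b, Sla, Ptpn22, Zap70 and Cd3g. The share past the threshold was 34.1% for these genes and 20.7% for all 11172 genes tested. These genes were chosen with earlier results of these data known, so their shares are descriptions and not tests. By direction, 22.0% of them rose against 9.0% of all genes, and 12.2% fell against 11.7%. Among the 5372 genes with a mean level between 36.2 and 1826 CPM, the range these members span, 21.2% passed, 10.7% higher and 10.5% lower. The calls of Themis, Ptpn6, Rasgrp1, Dgka and Csk among the rises, and of Cd3g among the falls, did not hold under every setting (below).

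None of the 14 exceeded 2-fold, and 5 of the 14 reached 1.5-fold. Of the 2310 called genes over the whole table, 956 exceeded 2-fold. Of the 1139 called genes within the members' range of levels, 163 did. The median absolute log2 fold change was 0.22 over the 41 genes, 0.22 over all genes tested and 0.16 over genes within that range. The median log2 fold change was 0.03 over the 41 genes and 0.00 over all genes tested. Summed over the 41 genes, expression was 17790 and 17250 CPM in WT and 16750 and 17600 CPM in P65KO, so the total overlapped between the groups while single genes moved in both directions. In bulk RNA, fewer cells that carry a transcript and less of it per cell cannot be told apart.

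**Figure D1:**
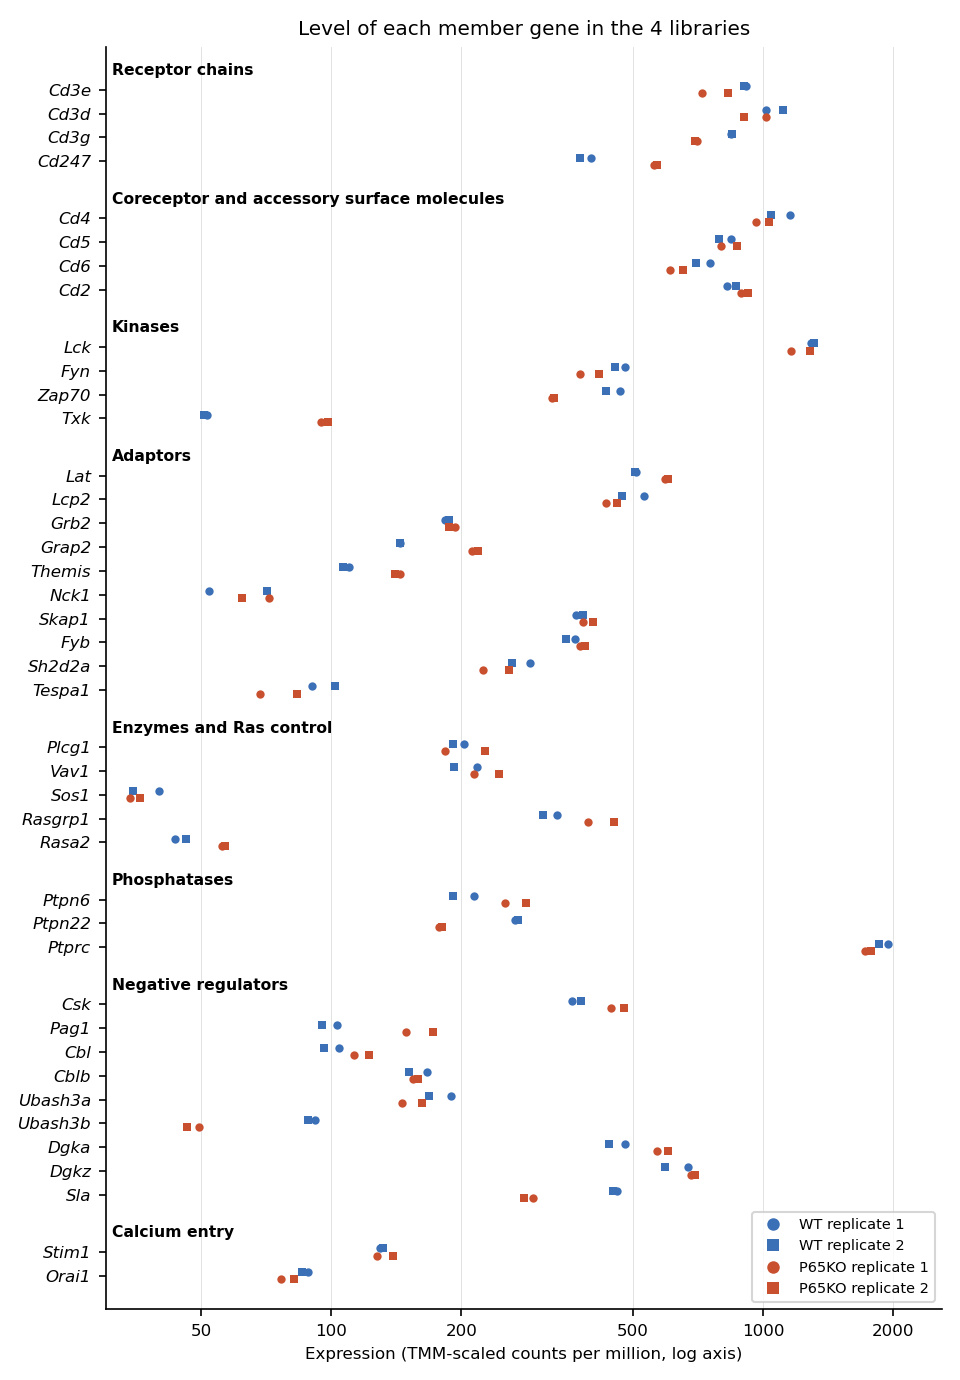
Expression of each of the 41 genes in the 4 libraries, in CPM on a log axis, grouped by role (blue, WT; orange, P65KO; circles, replicate 1; squares, replicate 2). Ptprc is the highest gene at 1723 to 1945 CPM and Sos1 the lowest at 34.2 to 39.9 CPM, and Txk and Ubash3b show the widest separation of the groups.

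The start regions of 4 genes are printed because these genes had the 2 largest rises and the 2 largest falls among called members that have a RefSeq promoter entry free of annotated exon bases. Pag1, Sla, Cd2, Cd4, Cd6, Sh2d2a, Skap1 and Tespa1 had no entry. Each is the 250 bases before a listed transcription start of the gene, which can lie inside the span of its longest transcript, read 5′ to 3′ on its own strand from RefSeq on GRCm38.p6, and capitals mark AGGAAG or its reverse complement, the core bound by ETS factors.
Ubash3b, chr9:41158063-41158312, minus strand: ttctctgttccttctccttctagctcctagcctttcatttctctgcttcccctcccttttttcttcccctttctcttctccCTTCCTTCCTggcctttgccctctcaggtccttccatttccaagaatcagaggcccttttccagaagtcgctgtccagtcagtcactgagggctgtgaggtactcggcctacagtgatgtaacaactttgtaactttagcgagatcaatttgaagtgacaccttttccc
Ptpn22, chr3:103859545-103859794, plus strand: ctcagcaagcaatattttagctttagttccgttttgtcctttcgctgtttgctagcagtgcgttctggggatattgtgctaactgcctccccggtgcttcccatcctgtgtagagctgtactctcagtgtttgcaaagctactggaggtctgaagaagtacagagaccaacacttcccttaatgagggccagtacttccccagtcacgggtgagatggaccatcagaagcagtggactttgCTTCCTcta
Txk, chr5:72752778-72753027, minus strand: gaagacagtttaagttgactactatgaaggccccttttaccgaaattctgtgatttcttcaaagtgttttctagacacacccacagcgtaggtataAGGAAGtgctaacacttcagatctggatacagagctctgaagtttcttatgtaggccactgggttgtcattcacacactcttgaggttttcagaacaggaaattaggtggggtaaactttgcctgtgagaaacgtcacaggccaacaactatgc
Grap2, chr15:80623233-80623482, plus strand: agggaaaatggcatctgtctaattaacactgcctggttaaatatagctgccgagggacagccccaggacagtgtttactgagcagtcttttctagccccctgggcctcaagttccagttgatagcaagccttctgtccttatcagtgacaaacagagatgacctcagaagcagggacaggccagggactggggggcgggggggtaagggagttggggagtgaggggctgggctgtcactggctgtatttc

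Searched on both strands in the same 250-base window, with overlapping matches of different motifs all counted, the ETS core was found in 26 of the 48 start regions listed for 33 of the genes (54.2%), against 29.5% of all 32851 start regions. In the printed regions it stands at 2 positions, which overlap, before Ubash3b, 1 before Ptpn22, 1 before Txk and none before Grap2, so genes of both directions carry it. The kappaB consensus, the sequence that NF-kB dimers bind, was in 0 of the 48 and in 7.25% of all start regions. The RUNX core TGTGGT was in 10.4% of the 48 and 14% of all, and the GC box GGGCGG in 39.6% and 32.7%. These matches describe letters in a short window, and enhancers farther away were not examined.

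The receptor chains did not move together. The signalling chains of the receptor are CD3 epsilon, delta and gamma and the zeta chain encoded by Cd247, which carries most of the tyrosine motifs. Cd247 (Entrez 12503; GRCm38 chromosome 1, 165779952 to 165871153) stood at 399, 377, 560 and 569 CPM. Both P65KO libraries were above both WT libraries, a 1.45-fold rise (log2 0.54 ± 0.09 SE, edgeR adjusted p = 8.79e-04). Cd3g went the other way at 841, 846, 704 and 697 CPM, a 1.2-fold fall (log2 -0.27 ± 0.09 SE, edgeR adjusted p = 0.0452). The call of Cd3g ended in each fit that left out 1 library (adjusted p of 0.136 without WT replicate 1, 0.142 without WT replicate 2, 0.180 without P65KO replicate 1 and 0.234 without P65KO replicate 2, edgeR). It also ended with the replicate number as a block (edgeR adjusted p = 0.121).

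The other CD3 genes did not pass. Cd3e was at 915, 906, 722 and 830 CPM, so its groups did not overlap (log2 -0.23 ± 0.10 SE, edgeR adjusted p = 0.113). Cd3d was at 1014, 1115, 1016 and 905 CPM, with overlapping groups (log2 -0.15 ± 0.10 SE, edgeR adjusted p = 0.323). Cd3g, Cd3d and Cd3e are neighbours on chromosome 9, with 1337 bases between Cd3g and Cd3d and 11682 between Cd3d and Cd3e.

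Per length, the zeta chain was the scarcest of the 4 transcripts. In RPKM (reads per kilobase of the gene model, scaled to library size), WT libraries held 840 and 833 of Cd3g, 778 and 845 of Cd3d, 651 and 636 of Cd3e and 88.5 and 82.6 of Cd247. Cd3g and Cd3d overlapped in this order, while Cd3e and Cd247 were each below the next. The Cd247 model is 4604 bases long against 1023 to 1436 for the CD3 genes, and in GENCODE M21 it shares 3007 exon bases with Pou2f1 on the opposite strand. The strand setting of the counting is not stated in the labels or the file. Pou2f1 did not move with Cd247, at 216, 219, 213 and 215 counts. With the strand setting unknown, these counts cannot tell how reads in the shared bases were assigned.

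The ratio of Cd247 to Cd3e within a library, which no scaling between libraries can alter, was 0.136 and 0.130 in WT and 0.242 and 0.214 in P65KO. The ratios of Cd3g to Cd3e (1.29, 1.31, 1.37, 1.18) and of Cd3d to Cd3e (1.2, 1.33, 1.52, 1.18) overlapped between the groups. So the ratio of the zeta chain to Cd3e separated the groups, and the proportions of the 3 CD3 transcripts to each other did not. Cd3e itself was lower in both P65KO libraries than in WT, so both parts of that ratio moved.

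None of the 4 surface molecules beside the receptor passed the test. Cd4, the coreceptor that brings Lck to MHC class II, was at 1153, 1045, 964 and 1031 CPM (log2 -0.14 ± 0.09 SE, edgeR adjusted p = 0.334). The 2 WT libraries differed from each other by more than the lower of them did from the higher P65KO library. Cd5, an inhibitory receptor whose level follows signal strength, was at 846, 791, 798 and 871 CPM. The related scavenger receptor gene Cd6 was at 754, 698, 609 and 654 CPM, and the adhesion receptor gene Cd2 at 827, 867, 888 and 924 CPM. Cd5 overlapped between the groups, P65KO libraries were lower for Cd6 and higher for Cd2, and the 95% intervals of the ratio of P65KO to WT ran from 0.887 to 1.17 for Cd5, 0.757 to 0.998 for Cd6 and 0.936 to 1.22 for Cd2 (unadjusted).

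Among the kinases, Zap70 fell and Txk rose, and the Src family kinases Lck and Fyn did not pass. Zap70 (Entrez 22637; chromosome 1, 36761798 to 36782821), the kinase that docks on phosphorylated receptor chains, was at 466, 433, 325 and 328 CPM. That is a 1.38-fold fall with no overlap (log2 -0.46 ± 0.09 SE, edgeR adjusted p = 0.00284). Txk (Entrez 22165; chromosome 5, 72695978 to 72752992), a Tec family kinase also called Rlk that acts on phospholipase C, was at 51.4, 50.6, 94.4 and 98.1 CPM. Its 1.89-fold rise was the largest among the 41 genes (log2 0.92 ± 0.10 SE, edgeR adjusted p = 4.93e-05).

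Lck, which starts the cascade, was at 1295, 1313, 1160 and 1288 CPM (log2 -0.09 ± 0.09 SE, edgeR adjusted p = 0.545). The difference between its 2 P65KO libraries was larger than that between their higher value and WT. Fyn was at 478, 453, 377 and 417 CPM, below WT in both P65KO libraries but not past the threshold (edgeR adjusted p = 0.103). With library totals alone as the scaling, Fyn passed at adjusted p = 0.0478. Within a library, the RPKM ratio of Txk to Lck was 0.0391 and 0.0379 in WT and 0.0799 and 0.0748 in P65KO, and that of Zap70 to Lck was 0.379 and 0.348 against 0.295 and 0.269.

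**Figure D2:**
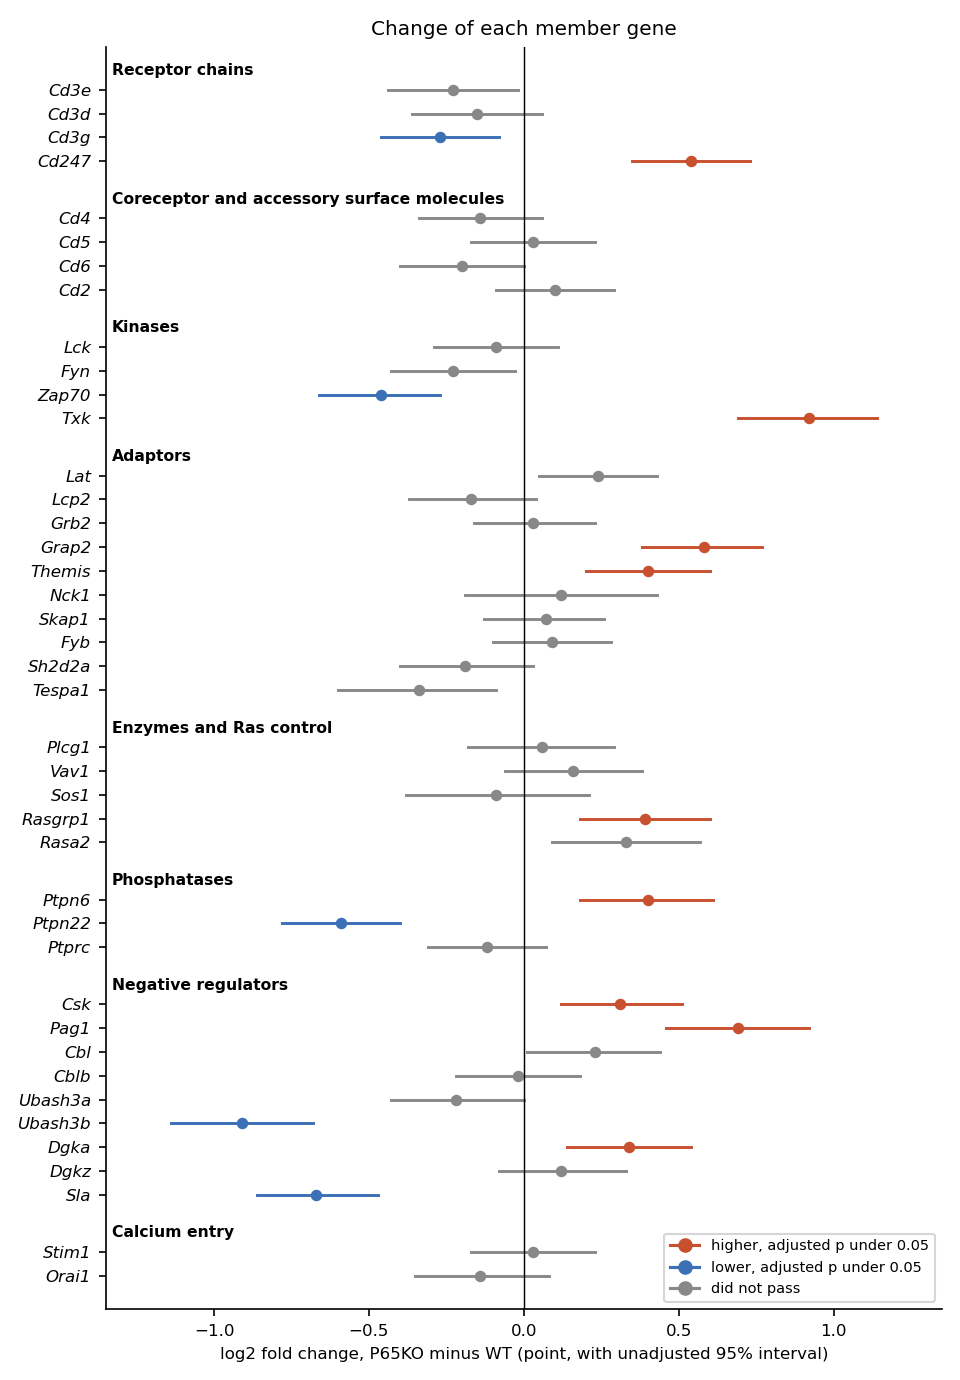
Log2 fold change of each of the 41 genes, P65KO minus WT, with its unadjusted 95% interval, grouped by role (orange, higher and past the threshold; blue, lower and past it; grey, not past it). The 14 coloured genes lie on both sides of 0, from -0.91 for Ubash3b to 0.92 for Txk.

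Of the 10 adaptor genes, Grap2 and Themis rose and the other 8 did not pass. Grap2, which encodes Gads, the adaptor that links SLP-76 to Lat, was at 144, 144, 211 and 219 CPM. The P65KO libraries were 1.49-fold higher (log2 0.58 ± 0.09 SE, edgeR adjusted p = 6.11e-04). Its relative Grb2, which brings the Ras activator Sos1 to Lat, was at 184, 188, 193 and 187 CPM, with an unadjusted 95% interval of the ratio from 0.895 to 1.17. The RPKM ratio of Grap2 to Grb2 within a library was 0.705 and 0.691 in WT and 0.983 and 1.05 in P65KO.

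Themis, a T lineage protein that sets the receptor threshold during selection in the thymus, was at 110, 106, 144 and 141 CPM, 1.32-fold higher (edgeR adjusted p = 0.00851). Leaving out WT replicate 1, WT replicate 2 or P65KO replicate 1 ended its call (edgeR adjusted p of 0.0586, 0.0709 and 0.0646). Lat, the membrane scaffold on which the signalling complex forms, was at 507, 506, 593 and 603 CPM. The groups did not overlap, yet the difference did not pass (log2 0.24 ± 0.09 SE, edgeR adjusted p = 0.0701).

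Lcp2, the gene of SLP-76, was at 530, 472, 433 and 460 CPM and did not pass (edgeR adjusted p = 0.247). Tespa1, an adaptor that couples the receptor to calcium release, was at 90.1, 102, 68.4 and 83.0 CPM and just missed the threshold (edgeR adjusted p = 0.0587). It passed at 0.0397 without P65KO replicate 2, at 0.0445 with the replicate number as a block and at 0.0304 with library totals alone (edgeR adjusted p), lower in P65KO each time. The remaining adaptors, Skap1 and Fyb of the integrin pathway, Sh2d2a, and Nck1 of the actin pathway, had log2 differences between -0.19 and 0.12. Nck1 was the least precise adaptor (SE 0.14), with 52.1 and 70.8 CPM in the 2 WT libraries.

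Of the 5 enzymes and Ras regulators, only Rasgrp1 passed. Rasgrp1, the diacylglycerol-dependent activator of Ras, was at 334, 310, 393 and 451 CPM, a 1.31-fold rise (edgeR adjusted p = 0.0134). Leaving out WT replicate 1, WT replicate 2 or P65KO replicate 2 ended the call (edgeR adjusted p of 0.0800, 0.138 and 0.163). Rasa2, a GTPase-activating protein that turns Ras off, was at 43.4, 46.1, 55.8 and 56.7 CPM and did not pass (edgeR adjusted p = 0.0564). Plcg1, the phospholipase that makes the calcium and diacylglycerol signals, was at 203, 191, 184 and 227 CPM. Vav1, an activator of Rac, and Sos1, an activator of Ras, overlapped between the groups as Plcg1 did.

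The 3 phosphatases went in different directions. Ptpn22 (Entrez 19260; chromosome 3, 103856575 to 103912252), which dephosphorylates Lck and Zap70, was at 267, 271, 178 and 180 CPM. The WT pair and the P65KO pair were each tight, and the difference was a 1.5-fold fall (log2 -0.59 ± 0.09 SE, edgeR adjusted p = 4.70e-04). Ptpn6 (SHP-1), which also acts on Lck and Zap70, was at 214, 191, 253 and 282 CPM, 1.32-fold higher (edgeR adjusted p = 0.0126). Leaving out the same libraries as for Rasgrp1 ended that call (edgeR adjusted p of 0.0555, 0.137 and 0.133). Ptprc (CD45), the phosphatase that keeps Lck ready by removing its inhibitory phosphate, was at 1945, 1857, 1723 and 1778 CPM (log2 -0.12 ± 0.09 SE, edgeR adjusted p = 0.389). Counts per gene do not tell its splice forms apart.

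Among the 9 negative regulators 3 rose and 2 fell (55.6% past the threshold, beside 20.7% of all genes). Ubash3b (Entrez 72828; chromosome 9, 41010760 to 41161692), the phosphatase Sts-1 that acts on Zap70, was at 91.8, 88.2, 49.4 and 46.3 CPM. It had the largest fall among the 41 genes, 1.88-fold (log2 -0.91 ± 0.11 SE, edgeR adjusted p = 6.44e-05). Its relative Ubash3a (Sts-2) was at 189, 168, 146 and 162 CPM and did not pass (edgeR adjusted p = 0.159). The RPKM ratio of Ubash3b to Ubash3a within a library was 0.442 and 0.478 in WT and 0.309 and 0.260 in P65KO.

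Sla (Entrez 20491; chromosome 15, 66780819 to 66831829) encodes SLAP, an adaptor that targets receptor chains for degradation with Cbl. It was at 460, 450, 294 and 280 CPM, a 1.59-fold fall (log2 -0.67 ± 0.09 SE, edgeR adjusted p = 1.84e-04). Pag1 (Entrez 94212; chromosome 3, 9687479 to 9833684), the membrane protein that holds Csk near Lck, was at 103, 95.1, 149 and 172 CPM. It rose 1.61-fold (log2 0.69 ± 0.10 SE, edgeR adjusted p = 5.01e-04). Csk, the kinase that adds the inhibitory phosphate to Lck, was at 362, 380, 445 and 476 CPM, 1.24-fold higher (edgeR adjusted p = 0.0266). Both partners of this inhibitory pair were thus higher in both P65KO libraries than in either WT library.

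The call of Csk ended in each fit that left out 1 library (edgeR adjusted p of 0.152 and 0.0872 without WT replicate 1 or 2, and 0.0679 and 0.199 without P65KO replicate 1 or 2) and with the replicate number as a block (edgeR adjusted p = 0.0592). Dgka, a kinase that removes diacylglycerol, was at 480, 441, 567 and 601 CPM, 1.27-fold higher (edgeR adjusted p = 0.0182). Its call too ended in each fit that left out 1 library. The log2 difference was 0.41 and 0.29 without WT replicate 1 or 2, and 0.39 and 0.30 without P65KO replicate 1 or 2. With the replicate number as a block, Dgka kept its call (edgeR adjusted p = 0.0331). Dgkz, which removes the same lipid, was at 672, 593, 681 and 698 CPM and did not pass (edgeR adjusted p = 0.399). The ubiquitin ligase genes Cbl and Cblb did not pass either, with unadjusted 95% intervals of the ratio from 1.01 to 1.36 and from 0.856 to 1.14.

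The calcium entry pair did not pass. Stim1, the sensor of calcium stores, was at 129, 132, 128 and 139 CPM, and Orai1, the channel it opens, was at 88.3, 85.6, 76.5 and 81.7 CPM. The unadjusted 95% intervals of the ratio were 0.886 to 1.18 and 0.782 to 1.06.

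**Figure D3:**
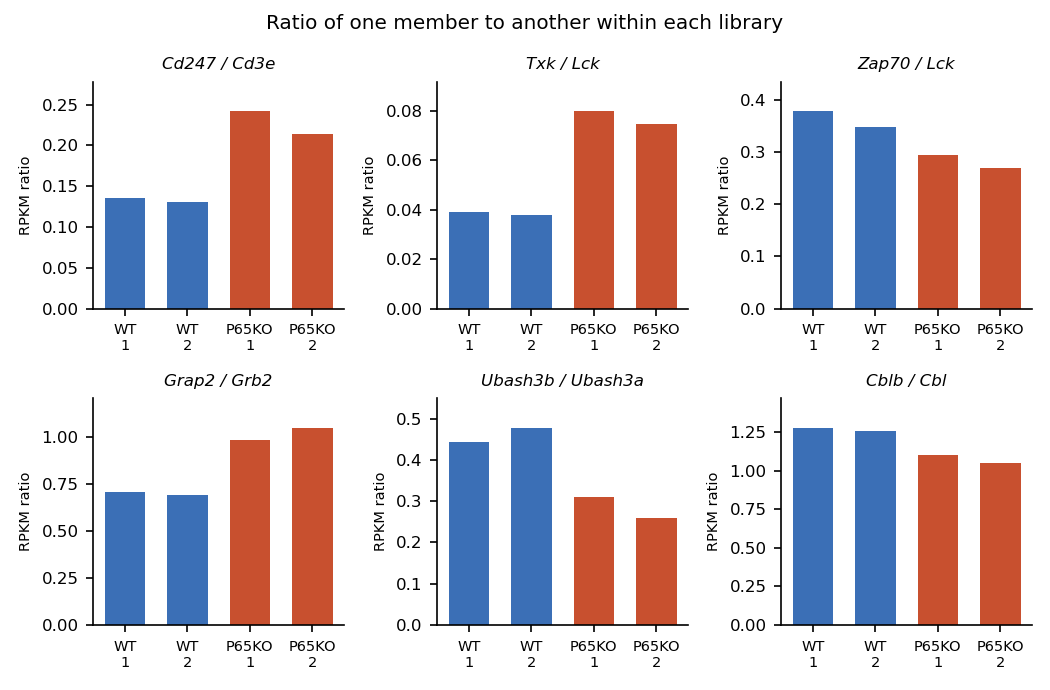
RPKM ratio of 1 gene to another within each library, for 6 pairs (blue, WT; orange, P65KO; bars start at 0). The 2 P65KO bars lie above both WT bars for Cd247 to Cd3e, Txk to Lck and Grap2 to Grb2, and below them for Zap70 to Lck, Ubash3b to Ubash3a and Cblb to Cbl.

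Counting groups without overlap in CPM gives 32 of the 41 genes (78.0%), with 16 above and 16 below WT, against 60.5% of all genes tested. The 9 that overlapped were Cd3d, Cd5, Plcg1, Vav1, Grb2, Sos1, Cblb, Nck1 and Stim1.

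The 14 called genes fell into those whose call held under every other setting tried and those whose call did not. Txk, Pag1, Grap2, Cd247, Zap70, Ptpn22, Sla and Ubash3b stayed past the threshold and kept their direction under all 11 planned settings, which left out each library in turn or changed the filter, the scaling, the test or the blocking. The weakest adjusted p among them was 0.0496, for Zap70 without WT replicate 1 (edgeR). Cd3g, Csk, Dgka, Rasgrp1, Ptpn6 and Themis kept their direction and lost the threshold under 4 to 7 of the 11. Without any filter on low counts 8 of the 41 genes passed (4 higher, 4 lower), and 8 passed without WT replicate 1 and without WT replicate 2.

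**Figure D4:**
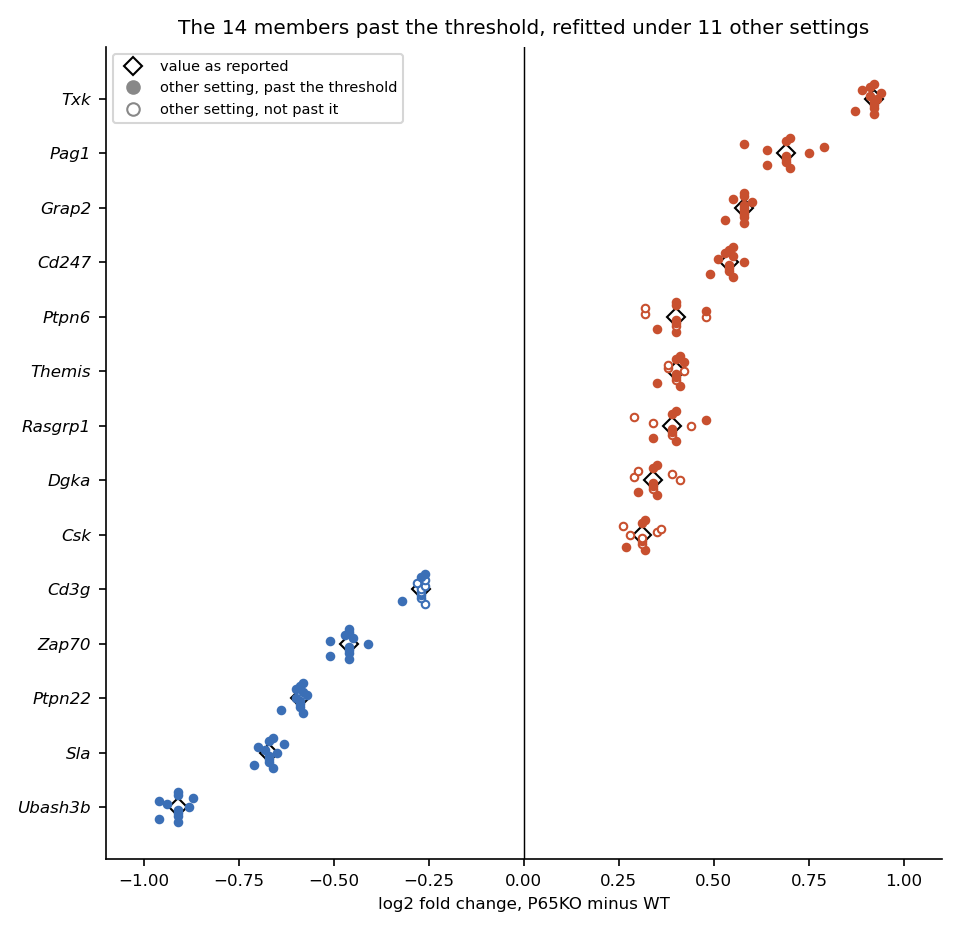
Log2 fold change of the 14 called genes as reported (diamonds) and under 11 other settings (circles; filled where past the threshold, open where not; circles of a gene are spread vertically so that they can be seen). The 8 genes with filled circles alone are Txk, Pag1, Grap2, Cd247, Zap70, Ptpn22, Sla and Ubash3b, and no circle crosses 0.

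Transcripts of other cells moved with the groups. Of 12 tested myeloid and dendritic markers among 16 listed, 8 rose and 0 fell, and their summed level was 238 and 314 CPM in WT and 1210 and 443 CPM in P65KO. Of the dendritic cell genes in that list, Itgax was at 4.12, 7.53, 94.2 and 48.5 CPM and Flt3 at 0.868, 2.15, 17.2 and 6.2 CPM. Others were too low to be tested, with 5, 10, 5 and 2 counts of Xcr1, 1, 3, 6 and 0 of Clec9a, and 0, 1, 0 and 0 of Siglech. Erythroid and platelet markers summed to 21.3 and 27.8 against 105 and 192 CPM, with 4 of 4 tested higher and Pf4 at 0 counts in all libraries. B cell markers summed to 49.5 and 52.5 against 24.3 and 15.1 CPM, with 2 of 2 tested lower and Pax5 and Ebf1 at 0 counts. Markers of gamma-delta T cells, which share the CD3 chains, summed to 14.8 and 12.7 against 27.6 and 29.0 CPM, with 2 of 3 tested higher. The 4 genes of NK and innate lymphoid cells summed to 20.8 and 27.3 against 15.7 and 12.8 CPM, and of the 3 tested Klrb1c fell 4.36-fold while Ncr1 and Eomes did not pass (log2 0.12 and 0.79).

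Several members, such as Ptpn6, Csk, Sla and Ptprc, are also expressed by myeloid or B cells. By summed level, P65KO replicate 1 held the most myeloid transcripts, and P65KO replicate 2 also held more than either WT library. Lyz2 was the highest marker of that sum in each library, at 90.9, 140.9, 635 and 193 CPM. In P65KO replicate 2 the 8 markers that rose were above both WT libraries. S100a8 (2.66 CPM), S100a9 (10.2 CPM) and Cst3 (78.2 CPM) were below both there, and Fcgr3 (1.77 CPM) lay between them. Without P65KO replicate 1 the log2 difference was 0.94 for Txk, 0.79 for Pag1, 0.60 for Grap2, 0.55 for Cd247, 0.48 for Ptpn6, 0.48 for Rasgrp1, 0.39 for Dgka, 0.38 for Themis and 0.36 for Csk. For the falls it was -0.96 for Ubash3b, -0.70 for Sla, -0.58 for Ptpn22, -0.45 for Zap70 and -0.28 for Cd3g. The part of transcripts from any of these other cells in the members' differences was not tested.

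Other genes of the pathway also moved in both directions. Of 74 listed genes that act beside or below them, 73 were tested, 17 rose, 14 fell and 42 did not pass (42.5% past the threshold, beside 20.7% of all genes), with a median log2 fold change of -0.02. Earlier results of these data were known when these genes were listed, so the share only describes them. With library totals alone as the scaling, the split was 12 higher and 17 lower. Carmil2 was matched through its older symbol Rltpr, and Pdk1, one of the genes that rose, is a pyruvate dehydrogenase kinase and not the signalling kinase Pdpk1, which did not pass.

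The genes that fell most were Rnf128, Lax1, Ctla4, Nfatc1, Dok1 and Orai3. Rnf128 (GRAIL), a ubiquitin ligase of T cell anergy, lies on the X chromosome and was counted 54, 30, 2 and 5 times (log2 -3.51 ± 0.53 SE, edgeR adjusted p = 5.01e-04). It was -3.0 without P65KO replicate 1 and -4.28 without P65KO replicate 2, so its size is uncertain, and for this X-linked gene too the genotype and the sex-linked difference cannot be told apart. Lax1, a membrane adaptor that dampens signalling, was at 122, 112, 51.8 and 54.5 CPM, 2.20-fold lower. Ctla4, the inhibitory competitor of CD28, fell 1.89-fold, the calcium-responsive transcription factor gene Nfatc1 1.82-fold, and the inhibitory adaptor gene Dok1 1.81-fold. Orai3, a relative of Orai1, fell 1.55-fold, a call that ended without WT replicate 2 (log2 -0.51). It also ended with no filter on low counts (edgeR adjusted p = 0.0624).

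The genes that rose most were Rasgrp4, Dgkd, Pik3ip1, Rasgrp2, Skap2 and Ptpn12. Rasgrp4, a Ras activator of low level here, was at 3.04, 3.87, 14.8 and 12.4 CPM, 3.91-fold higher. The summed level of the myeloid markers was higher in the 2 P65KO libraries as well, and their part in this gene was not tested. Dgkd, another diacylglycerol kinase gene, was at 169, 156, 255 and 272 CPM, 1.62-fold higher. Pik3ip1, an inhibitor of phosphoinositide 3-kinase, rose 1.52-fold and Rasgrp2, an activator of Rap1, 1.5-fold. Ptpn12, a phosphatase gene, rose 1.46-fold and lost its call when WT replicate 1, WT replicate 2 or P65KO replicate 1 was left out (edgeR adjusted p of 0.103, 0.0605 and 0.0542). Skap2, a relative of Skap1, lost its call without each of the same 3 libraries (log2 0.45, 0.69 and 0.36, in place of 0.56). Its call also ended with no filter on low counts and with library totals alone (edgeR adjusted p of 0.175 and 0.0677).

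The receptor's own constant genes were in this list, and Trac is named because it fell, a choice made after its value was seen. Trac, the alpha chain constant gene, was at 1068, 925, 787 and 819 CPM, a 1.24-fold fall (edgeR adjusted p = 0.0386) that was lost in each fit that left out 1 library (edgeR adjusted p from 0.0528 to 0.245). The call of Trac also ended with the replicate number as a block and with no filter on low counts (edgeR adjusted p of 0.0642 and 0.15). The beta chain constant genes Trbc1 and Trbc2, which are near-identical copies that may share reads, did not pass.

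**Figure D5:**
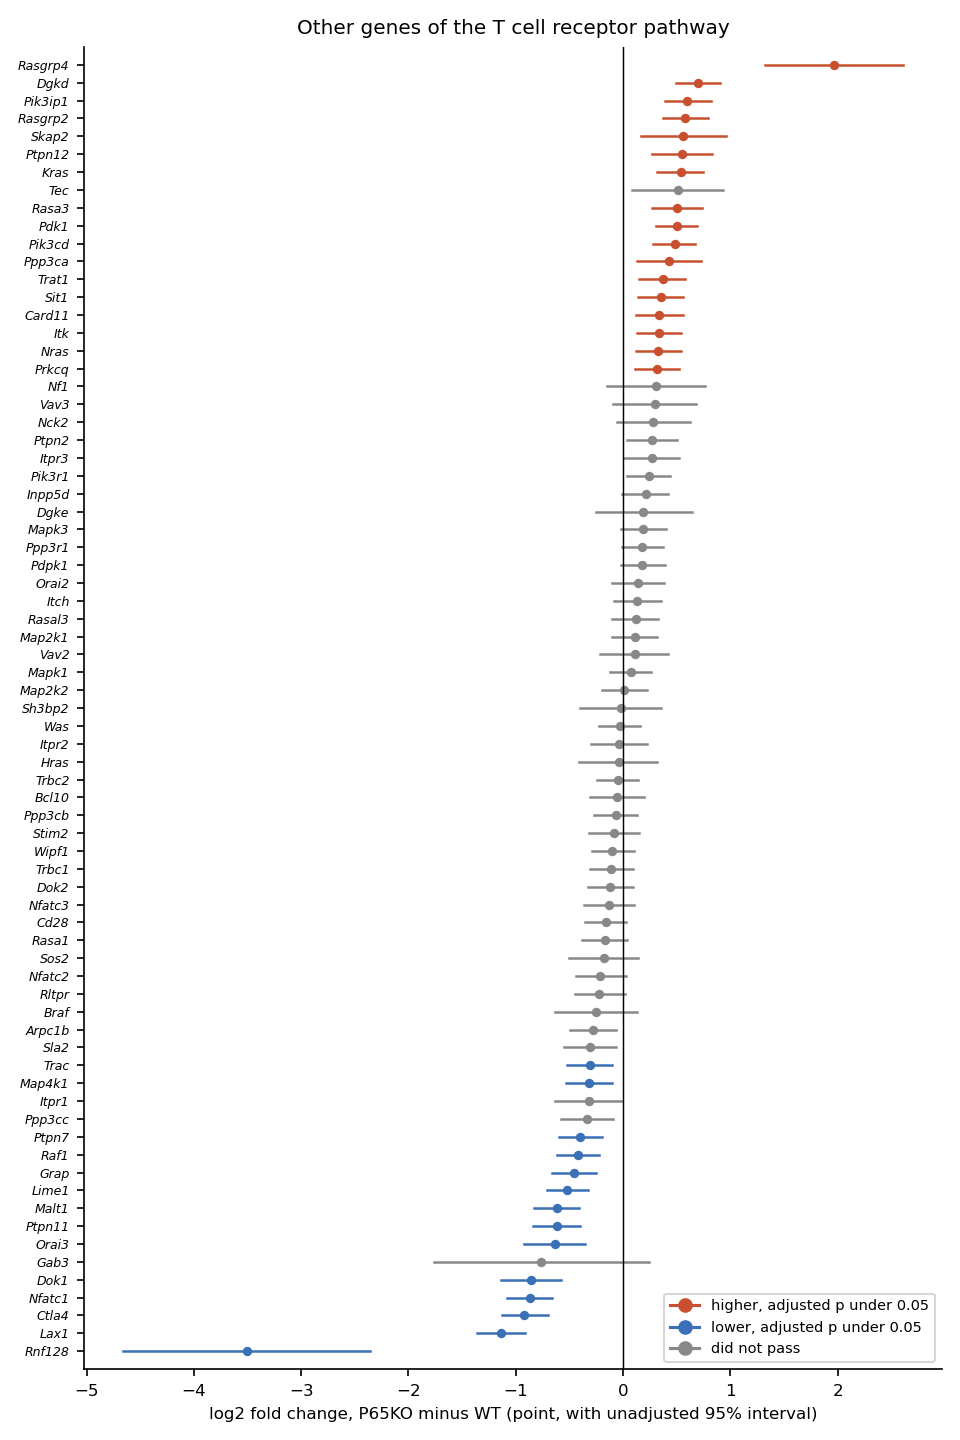
Log2 fold change, P65KO minus WT, of the 73 tested genes that act beside or below the members, with unadjusted 95% intervals, sorted by size (orange, higher and past the threshold; blue, lower and past it; grey, not past it). The 17 genes that rose and the 14 that fell lie on both sides of a median of -0.02.

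Genes listed as induced by receptor engagement were mostly lower or did not pass. Among 18 genes of the early response, 11 (61.1%, beside 11.7% of all genes) were lower and 1 was higher in P65KO, 6 did not pass, and the median log2 fold change was -0.68. This list was chosen with earlier results of these data known, so its share is a description and not a test. Icos, a costimulatory receptor, fell 4.70-fold, the transcription factor gene Irf4 2.51-fold and Egr2, a factor induced through calcineurin, 2.43-fold. Myc, the only gene of this list past the threshold upward, rose 1.45-fold, a call that ended without WT replicate 1 (log2 0.49). The call of Myc also ended with no filter on low counts (edgeR adjusted p = 0.0714). Nr4a1, often used as a reporter of receptor signal strength, was at 133, 107, 134 and 143 CPM and did not pass (edgeR adjusted p = 0.229). Nor did Fos (log2 0.77), Fosl2 (0.25), Fosb (-0.05), Egr1 (-0.18) and Nr4a3 (-0.31). Whether receptor signalling differed was not tested. Nfatc1 stands in this list and in the list of downstream genes.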

How the data were processed

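For 4 libraries the authors deposited 1 table of raw counts of 27179 Entrez genes, and log2 RPKM values in a file per library. The submitters' processing notes name the tools Subread, featureCounts and limma and the build GRCm38 (mm10). Versions, annotation and strand setting are not stated there. The deposited log2 RPKM values use the same counts plus 0.5, and gene lengths computed back from them were whole within 0.01 for 27178 genes, so they served for levels per length.

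Groups and replicate numbers came from sample titles. No label says that replicates were separate mice, so p-values reflect only how these libraries vary, which may be technical variation. Counts of the replicates varied beyond sampling noise, with a chi-square of 3.49 (WT) and 3.97 (P65KO) for each degree of freedom.

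Genes were filtered with filterByExpr, scaled by TMM and tested with the edgeR 4.0.16 quasi-likelihood F test (R 4.3.3), two-sided, without a replicate block, with Benjamini-Hochberg adjustment over 11172 genes and a threshold of 0.05. The standard error is the log2 fold change divided by the square root of F. The script was tested on simulated counts. Alternatives used DESeq2 1.42.0, limma-voom (limma 3.58.1), other scalings and filters, a replicate block, and each library left out.

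Members and lists were chosen with earlier results of these data known, as were the 4 motifs. All members are named. Full statistics were given to called members changed at least 1.5-fold and to the CD3 chains, Cd4, Lck, Zap70, Lat and Ptprc. From the downstream list the 6 highest and 6 lowest called genes are named, and from the early response list up to 3 called genes in each direction, those with the largest changes (only Myc rose). Nr4a1 and the other genes of that list that did not pass were added after their values were seen. Coordinates (1-based) and start regions came from RefSeq on GRCm38.p6, matched by Entrez identifier for 41 and 33 members. Exon overlaps came from GENCODE M21, on the same build.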

Additional observations from a re-analysis of the deposited data

How the results depend on the processing

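The direction of all 14 called members held under the 11 planned settings. With no filter on low counts, 8 members, 14 downstream genes and 771 of all genes passed, in place of 14, 31 and 2310, and the cause was not tested. With library totals alone the downstream genes split into 12 higher and 17 lower, in place of 17 and 14. With DESeq2, 14 members and 1318 of all genes passed, and the cause was not tested. Leaving out each library gave 8 to 10 members, 16 to 22 downstream genes, 9 to 10 early response genes and 916 to 1676 of all genes, where fewer libraries entered each fit. The median log2 fold change of the members ran from -0.04 to 0.02 in those fits, the lowest without P65KO replicate 2. Fits of 3 libraries assume that the lone library varies like the pair.

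The labels give same-numbered libraries only a number in common, and their deviations from the group means correlated at -0.137. With 2 libraries a group, this value cannot tell whether they shared a batch. With the replicate number as a block, 13 members, 28 downstream genes and 2319 of all genes passed, and the calls of Cd3g and Csk ended while Tespa1 passed. With crossed numbers, a setting chosen after seeing the data, 21 members, 37 downstream genes and 2973 of all genes passed. The early response list was also counted under each setting after seeing the data, with 8 to 13 genes past the threshold. The depth of 4513863 to 4624230 counts and 2 libraries a group limit small changes: Cd3g passed at 1.2-fold and lost its call under 7 of the 11 settings, and Lat did not pass at 1.18-fold.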
